A study of Mus musculus with 6 samples.

Results

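Müller glia, the radial glial cells of the retina, clear transmitter, buffer potassium, move water and balance acid for the neurons around them. Of the 10 genes described here, Glul, Slc1a3 and Slc1a2 serve glutamate, Kcnj10 potassium, and Aqp4 and Aqp1 water. Slc6a6 serves taurine, and Car2 and Car14 carbon dioxide and bicarbonate. Cd9, a membrane tetraspanin, is counted with these homeostatic genes but is not a gene of the functions named. Their probe sets were taken by name, as every probe set whose single gene symbol in the platform annotation is one of the 10. This gave 25 probe sets of the 45037 on the array, and 10 genes of the 18193 that have such a probe set. The comparison asks whether transcripts of these homeostatic functions hold their level in prCAD mutant retina while genes of reactive gliosis rise.

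The mutant mice were prCAD -/- and lacked photoreceptor cadherin, the product of Cdhr1. No label names their strain, and the control mice were wild type 129. Retinas were taken at about 4 weeks of age, and RNA from the pooled retinas of 3 mice went onto each array, with 3 mutant and 3 wild type arrays. Replicates are therefore pools, and every error below rests on the spread between pools. In whole retina, fewer Müller cells and less RNA per Müller cell cannot be told apart.

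In a healthy retina Müller cells take up glutamate through the transporter GLAST, which Slc1a3 encodes, and turn it into glutamine with glutamine synthetase, which Glul encodes. Potassium released by active neurons enters through the channel Kir4.1, the product of Kcnj10, and water follows through aquaporin 4, which sits beside it on the endfeet at vessels and the vitreous. In many injury models Müller cells raise intermediate filaments and cytokine signalling genes, and in some of them Kir4.1 and glutamine synthetase are lost. Several of the 10 genes are not confined to Müller glia: Slc1a2 is also used by cones and bipolar cells, Aqp1 by photoreceptors and amacrine cells, Slc6a6 by photoreceptors and pigment epithelium, and Aqp4 by astrocytes.

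The array medians lay between 4.74 and 4.79 on the log2 scale. Cdhr1 averaged 4.16 ± 0.20 in mutant and 11.22 ± 0.21 in wild type arrays (SD, n = 3 each), so its level follows the labels. Rod markers marked the tissue as retina, with Gnat1, the rod transducin subunit, at 12.92 ± 0.08 in mutant and 12.97 ± 0.17 in wild type arrays (SD, n = 3 each). Rlbp1, which encodes the retinoid carrier of Müller glia and pigment epithelium, averaged 8.80 ± 0.49 in mutant and 8.87 ± 0.46 in wild type arrays (SD, n = 3 each). The arrays numbered 3 stood apart in both groups, with array weights of 0.368 in the mutant and 0.386 in the wild type group, where the other 4 lay between 0.806 and 3.30.

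None of the 25 probe sets passed the test in either direction: 0 were higher and 0 lower in mutant retina by limma at an adjusted p under 0.05. Over the whole array 0.0111% of probe sets passed, 0.00888% as higher and 0.00222% as lower, so 0 of 25 does not set these genes apart from the rest. At an unadjusted p under 0.05 there were 2 of 25 (8.0%), the brightest probe set of Slc6a6 and that of Cd9, against 3.02% of all probe sets. With the replicate number as a block 0 again passed, against 0.0333% of all probe sets, at a smallest adjusted p of 0.202, and 6 of 25 (24.0%) had an unadjusted p under 0.05, against 7.60% of all probe sets. Lower among these 6 were 1437149_at, 1421346_a_at and 1420148_at, all of Slc6a6, and the dim 1440491_at of Slc1a3. The probe sets of Kcnj10 and Cd9 were higher. Probe sets of the same gene are not independent, so the 6 do not count as 6 genes. Groups did not overlap at 3 of the 25, 1 higher and 2 lower, and at 7.80% of all probe sets. Taking each gene at its brightest probe set, 5 genes lay higher and 5 lower in mutant retina. Their median difference was 0.01 on the log2 scale (quartiles -0.12 and 0.15), where the median of all named genes was 0.02. Over all 25 probe sets 10 lay higher and 15 lower, with a median difference of -0.08, against 0.01 over the whole array. Regardless of sign, the median size of the difference was 0.17 at the 25 and 0.08 over the whole array.

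The intervals say how large a difference the 6 arrays leave room for. At the brightest probe sets the 95% intervals of all 10 genes lay within 1 log2 unit of 0, that is, within a 2-fold difference, though that of Cd9 reached 1.00. For 4 of the 10, Glul, Slc1a2, Aqp4 and Car2, the interval lay within 0.5 log2 units of 0. Across all 25 probe sets, 21 intervals lay within 1 unit and 11 within 0.5 units of 0, and over the whole array 96.1% and 72.7% did. At the brightest probe sets the interval reached 0.22 to 0.44 to either side of the difference. Of the other probe sets, 5 average below 4.76, the median of all probe sets, where background can limit a difference.

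**Figure D1:**
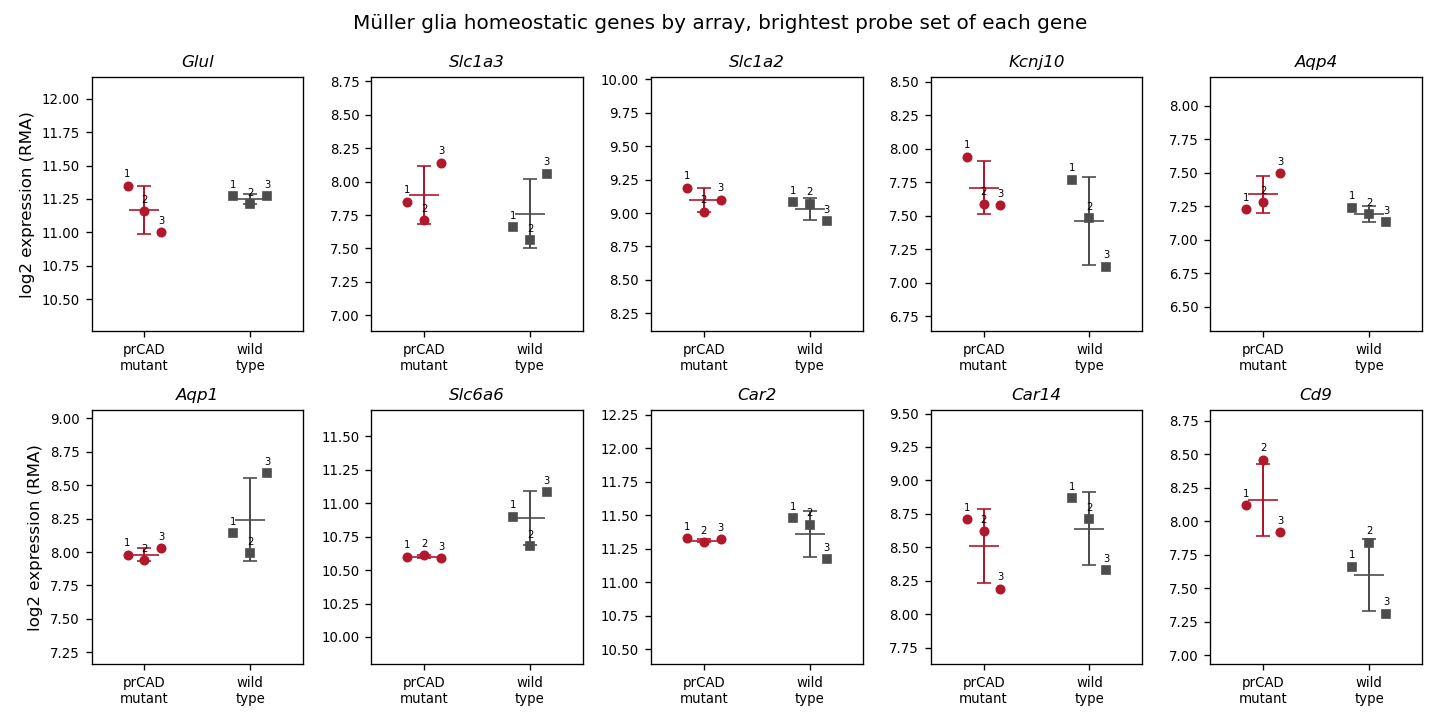
Log2 expression (RMA) of the 10 genes at the brightest probe set of each, with the 3 prCAD mutant arrays as circles at the left of each panel and the 3 wild type arrays as squares at the right, numbered by replicate; bars give the mean and SD (n = 3 each). Every panel spans the same range of 1.9 log2 units, and the groups overlap for 8 genes, the exceptions being Cd9, higher in mutant arrays, and Slc6a6, lower.

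Of the glutamate genes, Glul read 11.35, 11.16 and 11.00 in mutant arrays 1 to 3, against 11.27, 11.21 and 11.27 in wild type arrays 1 to 3. The mutant arrays spread to both sides of the narrow wild type range. The difference was -0.08 (SE 0.11, 95% interval -0.34 to 0.18, limma adjusted p = 1.0), a level 0.945 times that of wild type with bounds of 0.788 and 1.13. The other Glul probe set, 1426235_a_at, differed by -0.15 (SE 0.14, interval -0.48 to 0.17), and its groups overlapped as well. The lower bound of this probe set corresponds to 0.718 times wild type.

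Slc1a3 was measured by 6 probe sets, which did not all lie on the same side. At the brightest, 1443749_x_at, the mutant arrays read 7.85, 7.71 and 8.14, against 7.66, 7.56 and 8.06 in wild type arrays, a difference of 0.14 (SE 0.17, interval -0.26 to 0.54). Within each same-numbered pair the mutant array was higher, by 0.20, 0.15 and 0.09, while the groups as a whole overlapped, since arrays numbered 3 were the highest of both. The difference was 0.02 without mutant array 3, 0.05 without wild type array 2, 0.09 without wild type array 1, 0.24 without mutant array 2 and 0.29 without wild type array 3, and the mean of all 6 probe sets differed by 0.02. A name ending in _x_at marks probes that can also bind other transcripts. Probe sets 1452031_at and 1426340_at differed by 0.17 (SE 0.20) and 0.10 (SE 0.15), and 1426341_at by -0.08 (SE 0.13). The 2 dim ones, 1439072_at and 1440491_at, average below 4.76. They differed by -0.01 and -0.22, and 1440491_at was lower in all 3 mutant arrays (2.76, 2.67 and 2.54) than in any wild type array (2.95, 2.80 and 2.90).

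Slc1a2, which encodes the glutamate transporter GLT-1, read 9.19, 9.01 and 9.10 in mutant arrays at its brightest probe set, against 9.08, 9.07 and 8.94 in wild type arrays. The groups overlapped, and the difference was 0.07 (SE 0.09, interval -0.15 to 0.30). Leaving out single arrays gave 0.03 (without mutant array 1 or wild type array 3) to 0.12 (without mutant array 2). Of its 4 other probe sets, 3 differed by 0.12, 0.21 and 0.20, and 1439940_at by -0.43 (SE 0.45). All of these but the probe set at 0.12 were dim, with averages below 4.76. The wide error of 1439940_at came with a single high reading of 5.72 in wild type array 3. The other 5 arrays lay between 3.80 and 4.69.

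Kcnj10, the Kir4.1 channel, read 7.94, 7.59 and 7.58 in mutant arrays, against 7.77, 7.48 and 7.12 in wild type arrays, at its 1 probe set. Each mutant array lay above the wild type array of its number, by 0.17, 0.11 and 0.46, and the groups overlapped. The difference was 0.25 (SE 0.19, interval -0.19 to 0.69, limma adjusted p = 1.0), or 1.19 times wild type. With the replicate block the interval was 0.01 to 0.49 (adjusted p = 0.647), and the difference was 0.08 without wild type array 3, 0.13 without mutant array 1 and 0.41 without wild type array 1. On group alone the lower bound corresponds to 0.878 times wild type.

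Aqp4, the endfoot water channel, gave different pictures at its 3 probe sets. The brightest, 1434449_at, read 7.23, 7.28 and 7.50 in mutant arrays, against 7.24, 7.19 and 7.13 in wild type arrays, a difference of 0.15 (SE 0.10, interval -0.09 to 0.39), and 0.07 without mutant array 3. At 1447745_at the readings were 7.02, 7.01 and 7.50 in mutant arrays, against 7.36, 7.45 and 7.00 in wild type arrays (difference -0.09, SE 0.18). Probe set 1425382_a_at read 4.39, 5.57 and 7.72 in mutant arrays, against 6.17, 6.53 and 6.65 in wild type arrays, so the mutant arrays lay on both sides of wild type. Its difference of -0.56 had an SE of 0.75 and an interval from -2.32 to 1.21, and its pair differences of -1.78, -0.96 and 1.07 had no common direction. This mutant spread, an SD of 1.69, was the widest of all 25 probe sets. The mean of the 3 probe sets differed by -0.17, the opposite side from the brightest.

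Aqp1, a water channel of photoreceptors and amacrine cells in rodent retina, read 7.98, 7.94 and 8.03 in mutant arrays, against 8.14, 7.99 and 8.59 in wild type arrays. Wild type array 3 was the highest, and the other 5 arrays lay between 7.94 and 8.14. The difference was -0.25 (SE 0.16, interval -0.63 to 0.12), and -0.08 without wild type array 3 or -0.38 without wild type array 2.

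Slc6a6, the taurine transporter, lay lower in mutant retina at all 4 of its probe sets, and 0 of the 4 passed. The brightest, 1437149_at, read 10.60, 10.61 and 10.59 in mutant arrays, against 10.90, 10.68 and 11.08 in wild type arrays. The groups did not overlap, as at 3.07% of all probe sets in this direction, and the mutant arrays were close together (SD 0.01) where the wild type arrays were spread (SD 0.20). The difference was -0.29 (SE 0.12, interval -0.56 to -0.01, limma adjusted p = 1.0), or 0.819 times wild type. Without wild type array 3 it was -0.19. The other 3 probe sets, 1421346_a_at, 1420148_at and 1449751_at, differed by -0.40 (SE 0.28), -0.78 (SE 0.39) and -0.30 (SE 0.28), and their groups overlapped. With the replicate block the interval was -0.54 to -0.04 at 1437149_at and -0.69 to -0.11 at 1421346_a_at. It was -1.37 to -0.18 at 1420148_at and -0.71 to 0.12 at 1449751_at, and the limma adjusted p-values with the block were 0.582 to 0.713. Of the 12 differences between same-numbered arrays at the 4 probe sets, 11 were below 0, the exception being 0.11 at 1449751_at in pair 3. The 4 probe sets read the same RNA and are not independent measurements.

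**Figure D2:**
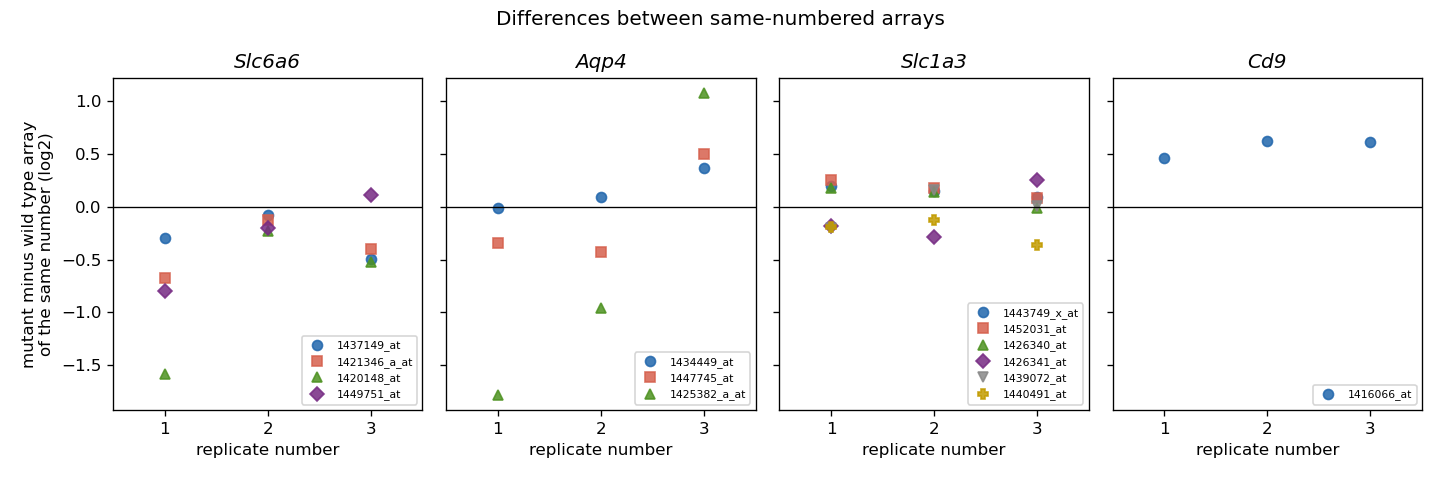
Difference between the prCAD mutant and the wild type array of the same replicate number (log2, y axis) for replicates 1, 2 and 3 (x axis) at every probe set of Slc6a6, Aqp4, Slc1a3 and Cd9, each symbol being 1 probe set. Slc6a6 lies below 0 in all but 1 reading, Aqp4 1425382_a_at runs between -1.78 and 1.07, Slc1a3 lies on both sides of 0, and Cd9 lies between 0.46 and 0.62.

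The carbonic anhydrase genes overlapped between groups. Car2, the cytosolic enzyme, read 11.33, 11.30 and 11.32 in mutant arrays, against 11.48, 11.43 and 11.17 in wild type arrays, a difference of -0.04 (SE 0.11, interval -0.30 to 0.21). Car14, a membrane-bound enzyme of Müller glia and pigment epithelium, read 8.71, 8.62 and 8.19 in mutant arrays, against 8.87, 8.71 and 8.33 in wild type arrays. In both groups array 3 read lowest, and each mutant array was below the wild type array of its number, by 0.16, 0.08 and 0.15. The difference was -0.13 (SE 0.19, interval -0.57 to 0.31).

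Cd9 had the largest difference of the 10 genes at their brightest probe sets. It encodes a tetraspanin, a scaffold protein of the cell membrane that Müller glia carry and that many other cell types carry too. It read 8.12, 8.46 and 7.92 in mutant arrays, against 7.66, 7.84 and 7.31 in wild type arrays. All mutant arrays lay above all wild type arrays, as at 4.73% of all probe sets in this direction, and the pair differences were 0.46, 0.62 and 0.61. The difference was 0.56 (SE 0.18, interval 0.13 to 1.00), or 1.48 times wild type, with an unadjusted p of 0.0184 and an adjusted p of 1.0 by limma over all probe sets. With the replicate block the interval was 0.36 to 0.77 (unadjusted p = 4.49e-04, adjusted p = 0.202). Leaving out single arrays gave 0.42 to 0.69, and leaving out both arrays numbered 3 gave 0.54.

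Markers of some other cell types and of neighbouring tissue lay higher in mutant arrays as well, where 10621 of all 18193 named genes did. Most neuronal markers lay lower: 8 of 10 of rods (median difference -0.17), 6 of 8 of bipolar cells (-0.10), 7 of 10 of amacrine cells (-0.03) and all 9 of ganglion cells (-0.32). Cone markers were 5 higher and 5 lower, and horizontal cell markers 3 higher and 4 lower. Of 18 pigment epithelium markers 16 lay higher, and their summed level (RMA values back on the linear scale) was 2833 to 3837 in mutant arrays, against 1418 to 2414 in wild type arrays. Rpe65, the retinoid isomerase of pigment epithelium, averaged 6.82 ± 0.56 in mutant and 5.75 ± 0.68 in wild type arrays (SD, n = 3 each), and Lrat and Tyr of this list average below 4.76. Of 14 microglia and macrophage markers 13 lay higher, at a summed level of 696 to 757 in mutant arrays, against 564 to 595 in wild type arrays. Vascular markers overlapped, at 1124 to 1338 in mutant and 1097 to 1270 in wild type arrays. Of 12 lens genes 11 lay higher, with a median difference of 0.71, the largest of the lists of other tissue, and their summed level was 30222 to 49813 in mutant arrays, against 15373 to 44871 in wild type arrays. The medians within pairs 1 to 3 were 0.07, 0.18 and 1.80 for lens and 0.22, 0.39 and 0.58 for pigment epithelium. They were 0.31, 0.11 and 0.18 for microglia and macrophages, and 0.04, -0.06 and 0.01 for vascular markers. Cd9 differed by 0.46, 0.62 and 0.61 in the same pairs. The part of these cells and tissues in the Cd9 difference was not tested.

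**Figure D3:**
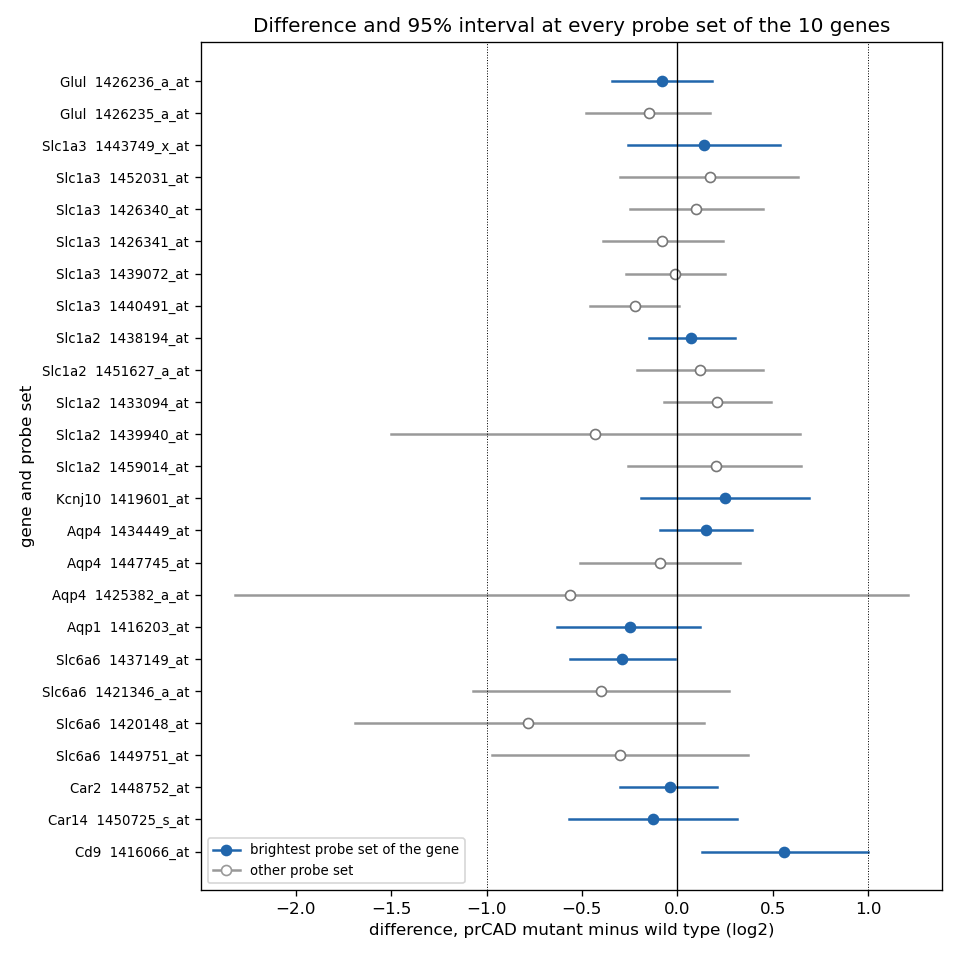
Difference, prCAD mutant minus wild type (log2, x axis), with its 95% interval from limma at all 25 probe sets (y axis); filled points mark the brightest probe set of a gene, open points the others, and dotted lines a 2-fold difference either way. All intervals at the brightest probe sets span 0 except those of Slc6a6 (-0.56 to -0.01) and Cd9 (0.13 to 1.00).

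The 10 genes varied with the replicate number as well as with the group. Array 1 read highest in both groups at 8 of the 25 probe sets and array 3 at another 8, and array 3 read lowest in both groups at 5. Mutant arrays lay above their same-numbered partners in all 3 pairs at 5 probe sets and below them in all 3 at 6, and over the whole array 17.0% and 13.1% of probe sets did so. Within groups the SD had a median of 0.23 in mutant and 0.17 in wild type arrays over the 25 probe sets.

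Partner genes of the same functions, and other tetraspanins, were described from 6 lists. Of 85 genes 76 had a probe set with a single symbol, 172 probe sets in all, and 0 passed in either direction by limma, also with the replicate block. At an unadjusted p under 0.05 there were 13 (7.56%), against 3.02% of all probe sets. With the replicate block there were 25 (14.5%), against 7.60% of all probe sets. Taking each gene at its brightest probe set, 49 lay higher and 27 lower, with a median difference of 0.06 (quartiles -0.03 and 0.14). Of all named genes 10621 lay higher and 7572 lower, with a median difference of 0.02.

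In the glutamate cycle, 15 partners had a median difference of 0.01. Slc38a3, a glutamine transporter that releases glutamine from glia, averaged 9.90 ± 0.11 in mutant and 9.85 ± 0.17 in wild type arrays (SD, n = 3 each). Slc1a1, a glutamate transporter of neurons, differed by 0.39 (SE 0.17), with mutant arrays all above wild type, and Slc7a11, the cystine and glutamate exchanger, was dim and differed by -0.02 (SE 0.08).

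Among 11 potassium and sodium partners the median difference was 0.02. The inward rectifier genes Kcnj2 and Kcnj16 averaged below 4.76 and differed by 0.09 (SE 0.13) and -0.02 (SE 0.11). Kcnj13, an inward rectifier of pigment epithelium that the pigment epithelium list also holds, differed by 0.60 (SE 0.10, limma adjusted p = 0.562), and its mutant arrays all lay above wild type. Atp1b2, a sodium pump subunit of glia and photoreceptors, averaged 11.80 ± 0.12 in mutant and 11.73 ± 0.17 in wild type arrays (SD, n = 3 each).

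Water channels and the dystrophin complex that anchors them at endfeet had a median difference of 0.11 over 17 genes. Dmd, which encodes dystrophin, differed by -0.27 (SE 0.17), Dag1, which encodes dystroglycan, by 0.24 (SE 0.12), and Dtna, which encodes dystrobrevin alpha, by -0.11 (SE 0.20). Trpv4, an osmosensitive cation channel, differed by 0.31 (SE 0.09), and Aqp11 by -0.01 (SE 0.12). Of these 5, Dag1 and Trpv4 had groups that did not overlap. Of all 17 genes 5 did not overlap, each higher in mutant retina, as did 1072 of all 18193 named genes in this direction.

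In the acid and bicarbonate list of 16 genes the median difference was 0.05. The bicarbonate transporter genes Slc4a4 and Slc4a3 differed by 0.05 (SE 0.09) and -0.07 (SE 0.10), and the carbonic anhydrase genes Car12 and Car4, both dim, by 0.37 (SE 0.21) and 0.05 (SE 0.08). Slc16a1, a lactate transporter, differed by -0.41 (SE 0.16), while Bsg, its chaperone basigin, differed by 0.05 (SE 0.12).

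Among 9 genes of taurine and transmitter handling 8 lay higher, with a median difference of 0.13. The GABA transporter genes Slc6a11 and Slc6a13 differed by 0.13 (SE 0.09) and 0.57 (SE 0.24). The enzymes of taurine synthesis, Csad and Cdo1, differed by -0.25 (SE 0.16) and 0.10 (SE 0.14). Of the 8 other tetraspanins 4 lay higher and 4 lower, from -0.73 to 0.28, with a median difference of 0.01. Cd81 and Cd82 differed by 0.10 (SE 0.20) and 0.09 (SE 0.14). Prph2, the photoreceptor disc tetraspanin peripherin, lay farthest from 0, at -0.73 (SE 0.37) with overlapping groups, and is named after its value was seen. The difference between these genes and Cd9 was not tested.

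Identity genes of Müller glia outside the 10 and outside the gliosis list had a median difference of 0.02 over 14 genes, and 0 passed. Dkk3, a secreted protein of the Wnt pathway, differed by -0.08 (SE 0.18), Apoe, the lipid carrier of glia, by 0.37 (SE 0.29), Sox2 by -0.13 (SE 0.21) and Sox9 by 0.11 (SE 0.09), these last 2 being transcription factors of glial identity.

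Genes of reactive gliosis lay on the higher side in the same arrays. All 28 measured genes of that list were higher in mutant retina at their brightest probe sets, with a median difference of 0.75 (quartiles 0.40 and 1.08), against 0.01 for the 10 homeostatic genes. Of all 18193 named genes 10621 lay higher. Both lists were chosen with earlier results of these data known, so their contrast is a description and not independent evidence. Of the gliosis genes 20 lay higher by more than 0.5, against 1 of the 10 homeostatic genes, which was Cd9. Of all 18193 named genes 167 did so at their brightest probe sets. Counting every probe set on the array, 292 of 45037 (0.648%) did. The median within same-numbered pairs was 0.81, 0.52 and 1.08 for the gliosis list, and 0.03, -0.05 and 0.12 for the homeostatic genes. The difference between the lists was not tested, and genes of both read the same 6 arrays. Pigment epithelium, microglia and lens markers lay higher in these arrays too, with median differences of 0.56, 0.17 and 0.71, and their part in the gliosis values was not tested. Cryab, a crystallin gene of glia and lens in the gliosis list, singled out after its values were seen, differed by 0.09, -0.06 and 1.85 within pairs. Without Cryab all 27 gliosis genes lay higher, with a median of 0.75 and pair medians of 0.81, 0.52 and 0.97.

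Of 67 gliosis probe sets 37 (55.2%) had an unadjusted p under 0.05, all higher, against 3.02% of all probe sets in either direction. Only 1 passed over the whole array, where 0.00888% of all probe sets passed in this direction. It was a dim probe set of Socs3, which encodes a feedback inhibitor of STAT3 signalling, at 5.42, 5.50 and 5.55 in mutant arrays, against 3.80, 3.96 and 4.06 in wild type arrays (limma adjusted p = 0.0150). That call was lost without mutant array 1 or 2 and without wild type array 1 or 2, with 0 gliosis probe sets then passing. With the replicate block 4 passed, against 0.0333% of all probe sets. Gfap, the glial intermediate filament, read 7.84, 7.76 and 7.32 in mutant arrays, against 6.03, 6.69 and 5.40 in wild type arrays. At this brightest probe set the difference was 1.60 (SE 0.32, limma adjusted p = 0.791). Another Gfap probe set, 1426509_s_at, differed by 2.33 (SE 0.3, limma adjusted p = 0.217). It was 1 of the 4 that passed with the replicate block (limma adjusted p = 0.00598). The dim Gfap probe set 1440142_s_at differed by 0.17 (SE 0.15). Vim, the intermediate filament that Müller cells carry at rest, differed by 0.63 (SE 0.24). Edn2, which photoreceptors make in injured retina, differed by 3.51 (SE 0.49), and Cebpd and Osmr by 2.52 (SE 0.32) and 1.77 (SE 0.20).

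**Figure D4:**
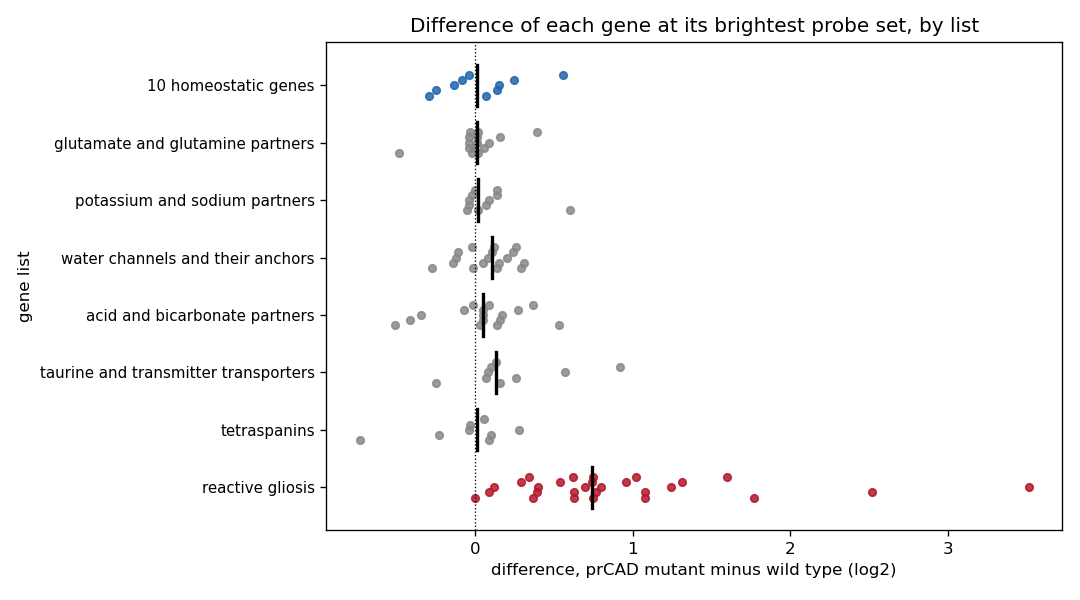
Difference, prCAD mutant minus wild type (log2, x axis), of each gene at its brightest probe set, with 1 row for the 10 homeostatic genes, 6 for partner lists without the 10 genes, and 1 for reactive gliosis (y axis); black bars are medians. The homeostatic genes lie between -0.29 and 0.56 around a median of 0.01, and the gliosis genes between 0.0026 and 3.51 around a median of 0.75.

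STAT3 binds the motif TTCNNNGAA, which is its own reverse complement, and the gliosis list holds several genes of that pathway. The motif, chosen after the values were seen, was looked up in the 250 bases before the start of genes in RefSeq (GRCm38.p6). It was found at 1 of 7 homeostatic genes with a promoter in the table, and at 2 of 23 gliosis genes (8.70%), where 8.13% of 27025 genes held it. The promoter of Slc1a3 is shown as the homeostatic gene with a match, that of Socs3 as the gliosis gene whose probe set passed, and that of Cd9 as the homeostatic gene with the largest difference and no match in this window. Each runs 5′ to 3′ on the gene's strand, which is the minus strand for all 3, and capitals mark the motif.
Slc1a3, chr15:8710808-8711057: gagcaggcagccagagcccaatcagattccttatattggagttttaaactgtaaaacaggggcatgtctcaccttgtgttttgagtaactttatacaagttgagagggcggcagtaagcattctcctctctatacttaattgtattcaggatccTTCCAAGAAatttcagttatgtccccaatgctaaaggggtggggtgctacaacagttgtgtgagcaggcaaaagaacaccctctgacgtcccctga
Socs3, chr11:117969367-117969616: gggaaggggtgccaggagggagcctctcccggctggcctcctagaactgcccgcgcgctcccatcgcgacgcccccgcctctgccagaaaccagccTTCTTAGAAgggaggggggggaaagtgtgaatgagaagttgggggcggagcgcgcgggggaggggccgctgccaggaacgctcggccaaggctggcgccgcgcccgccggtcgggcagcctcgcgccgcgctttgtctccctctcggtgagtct
Cd9, chr6:125494761-125495010: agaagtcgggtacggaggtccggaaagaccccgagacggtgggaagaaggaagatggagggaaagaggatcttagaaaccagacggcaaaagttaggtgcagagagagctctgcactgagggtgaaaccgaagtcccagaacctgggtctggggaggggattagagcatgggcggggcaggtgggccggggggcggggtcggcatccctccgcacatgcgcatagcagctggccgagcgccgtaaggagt
The match lay 96 to 88 bases before the start of Slc1a3, whose transcript differed by 0.14 (SE 0.17), and 154 to 146 bases before that of Socs3, whose probe set rose by 1.55 (SE 0.10). A match of these letters is a description of the sequence and not a binding site measured here.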

How the data were processed

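Retinal total RNA of 6 samples was hybridised to single-colour Affymetrix arrays. The deposited values are log2 expression values that the authors made with RMA, per the submitters' processing notes, with no version given. RMA equalises probe intensities between arrays before it summarises them by probe set, so differences in overall signal are largely taken out. Of 45101 probe sets 64 manufacturer controls were left out. Symbols came from the platform annotation (34945 probe sets with 1 symbol, 932 with several, 9160 not named here).

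Arrays were grouped by their labels and compared on the log2 scale in limma 3.58.1 (R 4.3.3; lmFit, eBayes, group as the only term). P-values were adjusted by Benjamini and Hochberg's method across the 45037 probe sets, and 0.05 was the limit. SEs and 95% intervals are moderated by eBayes, which draws on the variances of all probe sets, and the intervals are unadjusted. SDs are those of the 3 arrays alone. A gene's brightest probe set has the highest mean of the 6 arrays. The labels carry replicate numbers 1 to 3 in both groups. After subtraction of group means, arrays sharing a number correlated at 0.477, 0.469 and 0.563 over all probe sets, so the numbers were taken as pairs, a reading from the data and not from the labels. The steps were tested on simulated data.

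The 10 genes and all lists were chosen with earlier results of these data known. Named genes are the 10, a fixed set of partner, gliosis, identity and cell type genes, Cdhr1, and any list gene past the threshold. Each is given at its brightest probe set unless another is named. The alternatives were the replicate block, a filter on dim probe sets, a second quantile normalization, centring on medians, a trended and robust eBayes, array weights, leaving out _s_at and _x_at probe sets, the mean of a gene's probe sets, a limit of 0.1, and leaving out each array. Figures were drawn with matplotlib 3.10.9.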

Additional observations from a re-analysis of the deposited data

How the results depend on the processing

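Of the 10 homeostatic genes, 0 of 25 probe sets passed under any alternative run by limma (2 at an unadjusted p under 0.05 on group alone, 6 with the replicate block), and 0 partner probe sets did. The count over the whole array was 5, and 15 with the replicate block, 25 with array weights, 3 without _s_at and _x_at probe sets, 16 without both arrays numbered 3 (chosen after seeing the data), and 2 to 9 without single arrays. For gliosis probe sets it was 1, and 4 with the block, 6 with array weights, 2 without both arrays numbered 3, and 0 to 1 without single arrays. It was 0 without dim probe sets or without _s_at and _x_at probe sets, since the Socs3 probe set is both. The median of the homeostatic genes was -0.08 with the mean of a gene's probe sets. Uncalled differences changed sign for 5 genes. Without single arrays, Car14 gave -0.28 to 0.03 (above 0 without mutant array 3), Car2 -0.14 to 0.02 (above 0 without wild type array 1) and Glul -0.17 to 0.0029 (above 0 without mutant array 3). Without both arrays numbered 3 Car2 gave -0.14 and Glul 0.01, with array weights Slc1a2 gave -0.0049, and with the mean of its probe sets Aqp4 gave -0.17; the cause was not tested. With 3 arrays a group, the number of arrays limits the precision, and below 4.76 background can limit the signal.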

Other observations

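Among the Müller identity genes Spc25, a kinetochore protein listed here as a Müller marker, lay far from the rest. It was chosen after its values were seen. Its brightest probe set, 1424118_a_at, read 4.51, 4.73 and 4.76 in mutant arrays, against 7.45, 6.99 and 8.84 in wild type arrays, a difference of -3.09 (SE 0.43, limma adjusted p = 0.297), and the groups did not overlap. Its other probe set, 1453815_at, was dim and differed by -0.29 (SE 0.31).

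All 9 ganglion cell markers were lower in mutant retina, each at its brightest probe set, with a median difference of -0.32. Of all 18193 named genes 7572 lay lower. By limma 0 of the 9 passed, and 0 with the replicate block at an adjusted p under 0.05. At an unadjusted p under 0.05 there were 3 of the 9, against 622 of all 18193 named genes in either direction. Rbpms, which marks ganglion cells, was dim and averaged 4.37 ± 0.12 in mutant and 5.14 ± 0.17 in wild type arrays (SD, n = 3 each). Sncg, which encodes gamma-synuclein, averaged 7.16 ± 0.13 in mutant and 7.52 ± 0.04 in wild type arrays. Astrocyte markers had a median difference of 0.07 over 9 genes, of which Aldh1l1, a folate enzyme of astrocytes, differed by 0.47 (SE 0.16) and Fabp7, a lipid-binding protein of immature glia, was dim and differed by -0.49 (SE 0.14).

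Stat3 at 1426587_a_at read 7.66, 7.97 and 9.38 in mutant arrays, against 7.03, 7.04 and 7.71 in wild type arrays, with array 3 the highest of both groups, as at Aqp4 1425382_a_at.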
